A study of Homo sapiens with 30 samples.

Results

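The Krüppel-like factor (KLF) genes described here are KLF17, KLF4, KLF5, KLF2, KLF3, KLF6, KLF7, KLF10, KLF11 and KLF13. They were taken by symbol from the count tables, which list 28307 genes, 18 of them named KLF. All 10 passed the low-count filter in each of the 4 model fits. Levels are given as CPM, counts scaled to the total of the library. KLF proteins bind GC-rich and CACCC-type DNA elements through zinc fingers at the carboxy terminus. The amino-terminal part differs between members and recruits coactivators or corepressors. In pluripotent cells the family is known for KLF2, KLF4 and KLF5, which maintain the naive state in the mouse, for KLF4 as a reprogramming factor, and for KLF17 as a marker of human naive cells.

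The samples were 30 RNA-seq libraries of H9, an established human embryonic stem (hES) cell line, in 10 groups of 3. Primed WT, unedited cells resembling the postimplantation epiblast, grew on Matrigel, and all other groups were naive cells on mouse feeder fibroblasts. NaiveCult WT and XACT KO (labelled XACTKO) were converted with the NaiveCult protocol. XACT KO came from 3 clones that lack the start sites of XACT, a long noncoding RNA of the X chromosome. The remaining 7 groups were in PXGL, a medium with inhibitors of MEK, tankyrase and protein kinase C plus the cytokine LIF. They were PXGL WT, which was unedited, XIST KO, a homozygous deletion over the XIST promoter and first exon in 1 clone, and CRISPRi UT and CRISPRi Dox. These last groups were clones carrying a doxycycline-inducible dCas9-KRAB repressor and a guide to the XIST promoter, left untreated or treated with doxycycline. Unedited PXGL cells were also transfected with a scrambled siRNA (siScr), with 1 siRNA against SPEN (siSPEN1) or with a mix of 2 others (siSPEN2). XIST is the RNA that coats the X chromosome, and SPEN is a corepressor that binds it. The siRNAs were transfected a second time on the day after the first.

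Several features limit these groups as models. The 3 XIST KO libraries are technical replicates of 1 clone, so their spread may be technical. No p-value of XIST KO covers differences between knockout clones. The main test of XIST KO takes its spread from all 12 libraries of PXGL WT, XIST KO and the CRISPRi groups. No group received doxycycline without the repressor, so the drug and the loss of XIST cannot be told apart in CRISPRi Dox. The library names bear 3 project prefixes, one for PXGL WT, XIST KO and the CRISPRi groups, one for the siRNA groups and one for Primed WT, NaiveCult WT and XACT KO. Project and culture state therefore cannot be told apart when PXGL WT is set against Primed WT or NaiveCult WT. In bulk RNA, as here, fewer cells expressing a gene and less RNA per cell cannot be told apart either.

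Library totals were 31190052 to 65637976 counts. The targeted genes moved as labelled: XIST by a log2 fold change of -11.39 in XIST KO and -2.62 in CRISPRi Dox, SPEN by -1.01 in siSPEN1 and -1.08 in siSPEN2, and XACT by -4.63 in XACT KO. The 8 naive markers summed to 24.9 to 30.3 CPM in Primed WT and to 2668 CPM or more in each naive library, and the 8 primed markers to 5411 to 5719 CPM in Primed WT and to at most 199.9 CPM in naive libraries. Fibroblast markers, which feeder cells could carry, summed to 11.6 to 33.7 CPM in the naive libraries and 81.3 to 87.6 CPM in the feeder-free Primed WT. Trophectoderm markers summed to 354 to 533 CPM in NaiveCult WT and XACT KO and to 29.1 to 51.5 CPM in the PXGL groups, beside every difference between these media below. CGA was the largest of them in NaiveCult WT, at a mean of 271 CPM, against 2.46 CPM in PXGL WT. GATA2 (37.9 and 9.30 CPM), KRT7 (24.5 and 2.07), GATA3 (22.0 and 8.86), ENPEP (12.3 and 0.437) and HAND1 (9.05 and 3.34) were also higher in NaiveCult WT. CDX2 (5.10 and 4.41 CPM) and TFAP2A (8.74 and 8.58) were close. The part of these markers in the differences between media was not tested.

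The family differed most between primed and naive cells. Divided by exon length, so that genes can be compared, the 10 genes summed to 48.9 ± 1.56 CPM per kb in Primed WT, 287.98 ± 9.10 in NaiveCult WT and 453 ± 3.39 in PXGL WT (mean ± SD, n = 3). The leading genes also differed. In Primed WT, KLF10 held 28.4% ± 0.759 of the summed level per kb, KLF3 20.6% ± 0.819, KLF6 19.1% ± 2.12 and KLF11 18.9% ± 1.09, whereas KLF4 held 0.897% and KLF5 1.67%. In PXGL WT, KLF5 held 31.7% ± 0.582, KLF4 28.0% ± 0.488, KLF17 10.1% ± 0.236 and KLF11 8.90% ± 0.254. KLF10 then held 1.60% ± 0.0868. NaiveCult WT lay between them in its sum, with KLF5 at 23.6% and KLF4 at 23.4%.

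**Figure D1:**
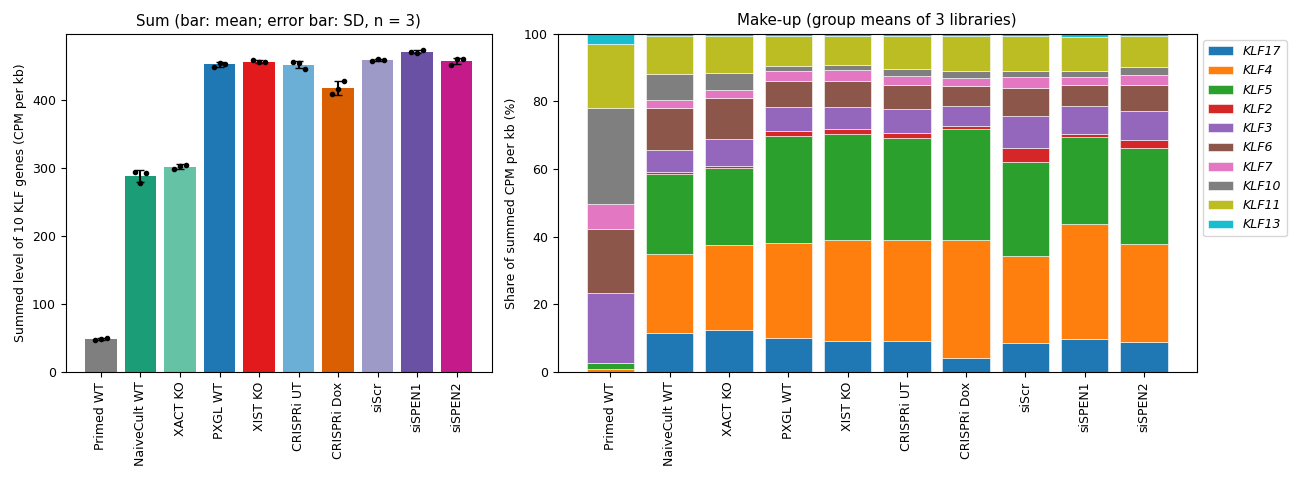
Summed level of the 10 KLF genes in CPM per kb (left; bars are group means, error bars SD of 3 libraries, points libraries) and the percentage of that sum held by each gene (right; group means) in the 10 groups. Primed WT sums to 48.9 CPM per kb, led by KLF10, and PXGL WT to 453, led by KLF5 and KLF4.

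The sequences before the start of KLF17, KLF2 and KLF5 are shown because KLF17 fell most with doxycycline in the CRISPRi clones, KLF2 fell most with both SPEN siRNA mixes, and KLF5 passed no test in the XIST, SPEN and XACT comparisons against controls, as the values further on give. RefSeq promoters (GRCh38.p14) were matched for 8 members, with no entry for KLF3 and KLF10. Each sequence is the 250 bases before the first listed start, plus strand, with matches to the KLF-type box CCNCNCCC or its reverse complement in capitals (matches may overlap each other). The window is chr1:44118571-44118820 for KLF17, chr19:16324576-16324825 for KLF2 and chr13:73054726-73054975 for KLF5.
KLF17: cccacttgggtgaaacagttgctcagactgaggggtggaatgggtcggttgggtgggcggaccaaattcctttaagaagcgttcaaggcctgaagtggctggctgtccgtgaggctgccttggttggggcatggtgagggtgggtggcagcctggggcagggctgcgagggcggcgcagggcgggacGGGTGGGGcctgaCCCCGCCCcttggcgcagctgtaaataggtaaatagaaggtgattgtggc
KLF2: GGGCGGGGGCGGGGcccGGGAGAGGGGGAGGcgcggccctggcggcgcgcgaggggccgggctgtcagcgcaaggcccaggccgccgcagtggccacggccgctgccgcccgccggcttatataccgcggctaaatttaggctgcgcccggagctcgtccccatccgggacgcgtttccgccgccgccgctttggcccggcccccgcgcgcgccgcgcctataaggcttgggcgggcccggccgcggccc
KLF5: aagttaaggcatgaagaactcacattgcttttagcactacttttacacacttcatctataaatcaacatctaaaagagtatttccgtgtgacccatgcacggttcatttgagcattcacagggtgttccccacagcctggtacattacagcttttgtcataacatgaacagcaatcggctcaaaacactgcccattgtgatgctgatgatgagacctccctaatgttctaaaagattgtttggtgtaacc
KLF17 held 2 matches, KLF2 5 and KLF5 0, and 53.4% of 35116 RefSeq promoters held at least 1 in the same window, 33.4% at least 2 and 8.65% at least 5. The GC content was 62.8%, 80.0% and 40.8%. A second KLF5 start, at chr13:73058755-73059054 with 50 bases past the start included, had 3 matches and a GC content of 71.3%. In windows of that length KLF4 held 10 matches, KLF11 2 and 8 by start, KLF6 6, KLF7 1 to 6 by start and KLF13 4. Whether matches go with the changes of a member was not tested. A match is a string of letters and no measured binding site.

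KLF17 separated primed from naive cells completely. KLF17 lies on chromosome 1 (hg38, 44118821 to 44135140, plus strand, protein-coding). It had 0 counts in all 3 Primed WT libraries, which allows at most 0.0179 CPM when 3 counts over the group are taken as the limit (counting error only). It was at 115, 85.6 and 116 CPM in NaiveCult WT and at 146, 141 and 145 CPM in PXGL WT. Against that limit KLF17 was at least 5889-fold higher in NaiveCult WT and at least 8045-fold higher in PXGL WT. Replicate 2 of NaiveCult WT stood below the other two.

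KLF4 and KLF5, both activators of pluripotency genes, were near the bottom of the scale in primed cells. KLF4 (chromosome 9, 107484852 to 107490482, minus strand) was at 1.37, 1.74 and 1.72 CPM in Primed WT, at 258, 232 and 249.8 CPM in NaiveCult WT and at 457, 476 and 459 CPM in PXGL WT. KLF5 (chromosome 13, 73054976 to 73077541, plus strand) was at 3.49, 2.92 and 2.57 CPM in Primed WT, at 256, 249 and 246 CPM in NaiveCult WT and at 514, 541 and 531 CPM in PXGL WT. The 3 groups did not overlap for either gene. From primed to NaiveCult, KLF4 had a log2 fold change of 7.40 and an SE of 0.080 (edgeR adjusted p = 6.3e-17). That of KLF5 was 6.55, with an SE of 0.084 (edgeR adjusted p = 2.1e-16). From primed to PXGL the values were 8.37 and 7.68.

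KLF2, a factor known from quiescent T cells and flow-exposed endothelium, is a target of ERK5 and MEF2. It was nearly silent in primed cells and stayed low in NaiveCult WT and PXGL WT. KLF2 (chromosome 19, 16324826 to 16328685, plus strand) had 7 counts over the 3 Primed WT libraries, or 0.0196, 0.0592 and 0.0457 CPM. It was at 4.22, 3.46 and 4.52 CPM in NaiveCult WT and at 18.5, 18.3 and 19.5 CPM in PXGL WT. Pooled over libraries this was 97.3-fold more in NaiveCult WT (exact 95% interval of the counts 46.9 to 243) and 449.9-fold more in PXGL WT (218 to 1120). The interval covers counting error only.

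In the PXGL WT libraries KLF2 remained among the lowest members per kb (6.65 ± 0.225 CPM per kb), with KLF13 below it (2.40 ± 0.105).

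**Figure D2:**
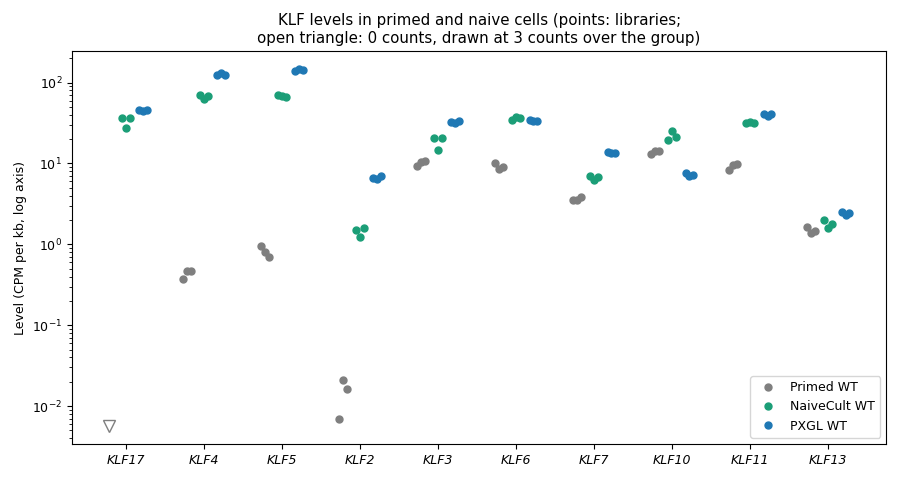
Levels of the 10 KLF genes in CPM per kb on a log axis in Primed WT, NaiveCult WT and PXGL WT (points, 3 libraries each). KLF17 has 0 counts in Primed WT and is drawn as an open triangle at 3 counts over the group; KLF4, KLF5 and KLF2 lie far below their naive levels, and KLF10 alone is lower in PXGL WT than in Primed WT.

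The members that primed cells already expressed rose less. KLF3 recruits the corepressor CtBP, and KLF6 and KLF7 are closely related to each other and mostly described as activators. From Primed WT to NaiveCult WT the log2 fold change was 1.04 for KLF3 (SE 0.10), 2.12 for KLF6 (SE 0.062) and 1.04 for KLF7 (SE 0.056), and from Primed WT to PXGL WT it was 1.89, 2.08 and 2.11. KLF3 and KLF7 lay close to the 2-fold limit in NaiveCult WT. Without TMM scaling, which lowers the levels of Primed WT 0.850-fold (a log2 shift of -0.23), their values were 0.89 and 0.88. KLF3 was at 0.97 without NaiveCult WT replicate 1 or 3 and at 0.99 without Primed WT replicate 1, and KLF7 was at 0.9995 without NaiveCult WT replicate 1. KLF3 was at 139.7, 99.3 and 141 CPM in NaiveCult WT, with replicate 2 apart from the others. KLF6 was the only member that did not pass between PXGL WT and NaiveCult WT (209 ± 3.64 and 223 ± 9.57 CPM, log2 fold change -0.04, 95% interval -0.16 to 0.07, edgeR adjusted p = 0.55).

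KLF10 and KLF11 are TGF-β-inducible repressors that recruit SIN3A, and KLF13 is related to them. KLF11 was at 42.5 ± 3.67 CPM in Primed WT, 148 ± 2.04 in NaiveCult WT and 185 ± 4.68 in PXGL WT. KLF13 rose by 0.41 (SE 0.094) and 0.90 (SE 0.093) on the log2 scale in the same comparisons. KLF10 took a different course: it was at 49.7, 54.4 and 55.0 CPM in Primed WT, at 75.0, 97.5 and 80.1 CPM in NaiveCult WT and at 29.2, 26.6 and 27.5 CPM in PXGL WT. The 3 groups did not overlap. KLF10 was thus higher in NaiveCult WT than in Primed WT (log2 fold change 0.82, SE 0.084, edgeR adjusted p = 5.1e-07) and lower in PXGL WT than in either (-0.73, SE 0.086, adjusted p = 2.2e-06, and -1.55, SE 0.087, adjusted p = 1.9e-09).

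In counts, 10 members passed the test upwards and 0 downwards in NaiveCult WT against Primed WT, where 42.5% of the 18663 genes tested were higher and 43% lower. In PXGL WT against Primed WT 9 were higher and 1 lower, against 43.1% and 44.4% of genes. In PXGL WT against NaiveCult WT 8 were higher and 1 lower, against 35.7% and 34.9% of genes. Past the 2-fold limit as well were 8, 8 and 4 members, against 49.6%, 54.8% and 27.4% of genes. Members past that limit are termed called. The 4 called members of the last comparison were KLF2 (log2 fold change 2.26), KLF5 (1.13), KLF7 (1.07) and KLF10, and KLF4 (0.97) reached 1.0005 without NaiveCult WT replicate 1. The median log2 fold change of the 10 members was 2.04, 2.22 and 0.68, beside medians between -0.03 and 0.01 for all genes tested. These comparisons share libraries and are not independent of each other.

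**Figure D3:**
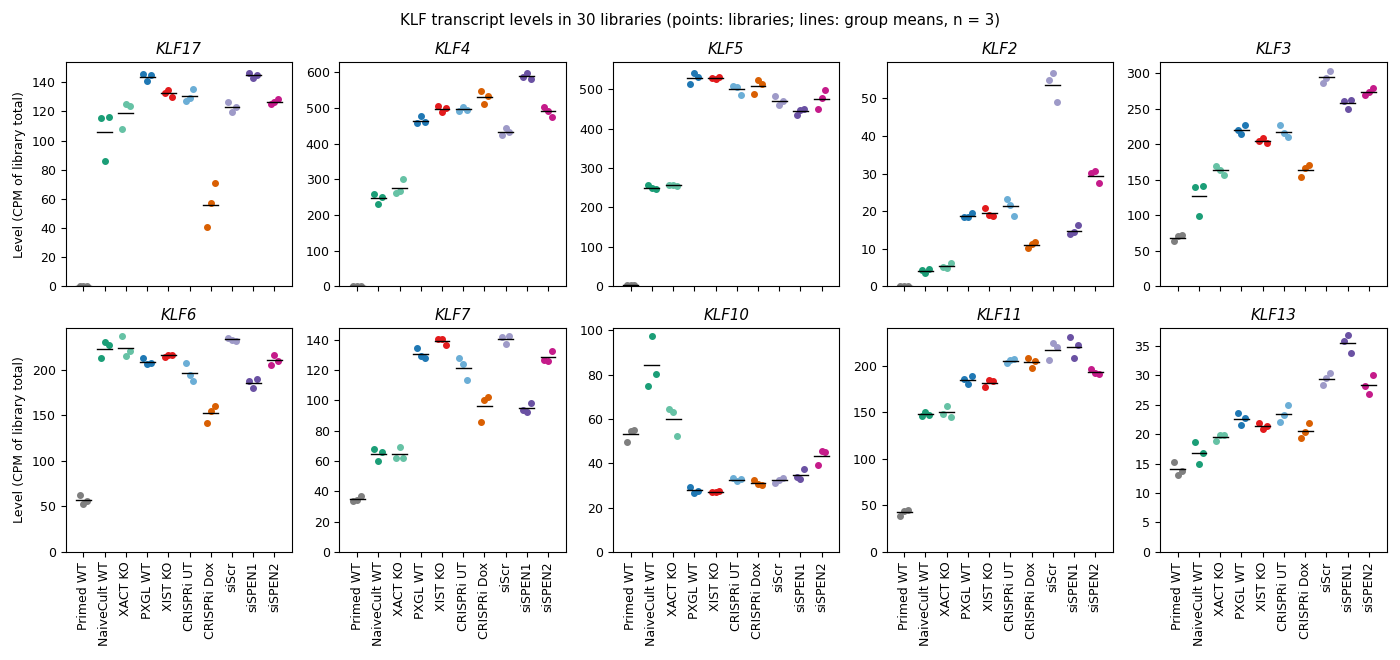
Level of each KLF gene in CPM in the 30 libraries (points) with the mean of 3 libraries per group (lines). KLF17 drops from 131 to 56.1 CPM with doxycycline, KLF2 from 53.6 to 14.8 CPM with siSPEN1, and KLF10 is highest in NaiveCult WT at 84.2 CPM.

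The gene lists fixed around the family moved in both directions with the state. Of the other KLF and SP genes, 14 of 17 were tested, and in NaiveCult WT against Primed WT 7 were higher and 6 lower. KLF12, a CtBP-recruiting repressor, was at 55.0 CPM in Primed WT and 0.0922 CPM in NaiveCult WT (log2 fold change -9.01), and KLF18, a close relative of KLF17 next to it on chromosome 1, at 0.0859 and 20.3 CPM (8.03). SP6 (3.89) and KLF9 (3.35) were the next largest. In PXGL WT against Primed WT 8 were higher and 5 lower, and in PXGL WT against NaiveCult WT 7 were higher and 2 lower, led by SP2 (4.20), KLF12 (3.28), SP6 (-1.71) and KLF16 (1.62). The list medians were 0.36, 1.49 and 0.37.

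A list of 18 genes, termed inputs, covered pathways that feed KLF transcription (LIF and STAT3, ERK5 and MEF2, TGF-β). It included feedback inhibitors such as SOCS3, so its counts and medians give no direction of signalling. In NaiveCult WT against Primed WT 4 were higher and 11 lower. The counts were 9 and 8 in PXGL WT against Primed WT, and 11 and 5 in PXGL WT against NaiveCult WT. The medians were -0.61, 0.13 and 0.60. IL6ST, the signalling subunit of the LIF receptor, was at 33.6 CPM in Primed WT, 475 in NaiveCult WT and 284.4 in PXGL WT. MEF2C, a partner of ERK5, was listed at 0 counts in NaiveCult WT and at 2.46 CPM in Primed WT, at least 105-fold lower. In PXGL WT against NaiveCult WT the largest were MEF2D (2.62), MAP2K5, the kinase upstream of ERK5 (1.98), SOCS3, the feedback inhibitor of STAT3 (-1.92), and LIFR (-1.88).

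The 12 naive factors beside the KLFs included 8 that were higher and 2 lower in NaiveCult WT and 9 and 2 in PXGL WT against Primed WT (medians 1.43 and 2.17), with 6 and 4 in PXGL WT against NaiveCult WT (median 0.41). DPPA5 and DPPA3 rose by 9.84 and 7.26 on the log2 scale in NaiveCult WT. TBX3 had 4 counts over the Primed WT libraries, and was 2900.2-fold more abundant in NaiveCult WT (exact 95% interval of the counts 1132 to 10647). Of 14 KLF cofactors 6 were higher and 7 lower, 11 and 3, and 10 and 2 in the 3 comparisons (medians -0.13, 0.71 and 0.53), with the acetyltransferases CREBBP (2.65) and EP300 (2.29) largest in PXGL WT against NaiveCult WT. Of 11 tested immediate-early genes 6 were higher and 4 lower, 6 and 5, and 3 and 4 (medians 0.82, 0.64 and -0.03).

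The next question was whether the loss of XIST moved the family. In XIST KO none of the 10 members passed edgeR's test, against 6.94% of 17286 genes higher, 5.99% lower and 1.28% called, 2235 genes passing in all. DESeq2 passed 0 members as well, and 4381 genes had an unadjusted p below 0.05. Without XIST KO replicate 2 the genes passing numbered 1482. The log2 fold changes lay between -0.12 for KLF17 and 0.10 for KLF4, and the 95% intervals of all 10 lay between -0.33 and 0.20. KLF17 was at 133, 135 and 129.7 CPM in XIST KO and at 146, 141 and 145 CPM in PXGL WT. These ranges did not overlap, but KLF17 varied more among the CRISPRi libraries of the same fit, and the adjusted p was 0.54. In a fit of these 6 libraries alone 4 members passed, KLF17 (-0.12, adjusted p = 0.00067), KLF3 (-0.10, 0.0022), KLF4 (0.10, 0.0048) and KLF7 (0.10, 0.0061), none by more than 0.12. The spread in that fit rests on PXGL WT and the technical replicates of the XIST KO clone, and may be technical. KLF4 also passed without PXGL WT replicate 2 (0.13, adjusted p = 0.032).

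With doxycycline in the CRISPRi clones 6 of the 10 members fell and 0 rose. KLF17 fell most, then KLF2, KLF3, KLF6, KLF7 and KLF13, whereas KLF4, KLF5, KLF10 and KLF11 did not pass. Across all genes tested, 20.7% were higher, 18.9% lower and 3.81% called. The median log2 fold change was -0.28 over the members and 0.00 over all genes. KLF17 was at 127, 129 and 136 CPM in CRISPRi UT and at 40.5, 56.8 and 71.0 CPM in CRISPRi Dox. The groups did not overlap, and the treated libraries were spread more widely than the untreated ones (SD 15.2 and 4.28 CPM). The log2 fold change of KLF17 was -1.24 (SE 0.11, edgeR adjusted p = 2.7e-08), and the only one called. Without CRISPRi Dox replicate 1, the lowest library, it was -1.04 (adjusted p = 1.7e-11).

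KLF2 had the next largest fall. It was at 23.4, 21.6 and 18.7 CPM in CRISPRi UT and at 10.3, 11.3 and 11.7 CPM in CRISPRi Dox (log2 fold change -0.96, SE 0.077, edgeR adjusted p = 6.8e-09). Without CRISPRi UT replicate 3 the change was -1.03, past the 2-fold limit. KLF3 went from 218 ± 8.05 to 164 ± 8.85 CPM (-0.42, SE 0.039, adjusted p = 4.6e-08), KLF6 from 196 ± 10.2 to 152 ± 9.22 CPM (-0.38, SE 0.042, adjusted p = 5.4e-07) and KLF7 from 122 ± 7.49 to 96.1 ± 8.98 CPM (-0.35, SE 0.053, adjusted p = 2.4e-05). In each of these the treated libraries lay below the untreated ones. The fall of KLF13 by 0.21 (adjusted p = 0.011) did not pass without CRISPRi Dox replicate 1 (adjusted p = 0.060), without CRISPRi UT replicate 3 (0.075) or in a fit of the 6 libraries alone (0.053).

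The members that carry most of the family's level stayed close to their untreated values. KLF5 was at 499 ± 12.1 and 507 ± 18.5 CPM (log2 fold change 0.01, 95% interval -0.06 to 0.08) and KLF4 at 496 ± 5.0 and 531 ± 18.8 CPM (0.09, 0.01 to 0.16, adjusted p = 0.073). KLF4 passed as higher without CRISPRi Dox replicate 2 (adjusted p = 0.0096). The summed level was 453 ± 5.53 CPM per kb untreated and 418 ± 10.1 treated, and KLF17 went from 9.15% ± 0.413 to 4.23% ± 1.05 of it.

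Marker sums moved beside these members. From CRISPRi UT to CRISPRi Dox the summed naive markers went from 2970.1 to 3090.3 CPM down to 2697 to 2886 CPM, the 6 eight-cell-like markers from 22.1 to 24.8 CPM down to 10.05 to 14.1 CPM and the 6 neuroectoderm markers from 384 to 404 CPM down to 283.7 to 322 CPM. Of the naive markers SUSD2 went from a mean of 901 to 552 CPM (log2 fold change -0.72), and DPPA3 fell slightly (-0.14). DPPA5 (0.28) and ARGFX (0.41) rose, and KHDC1L, KHDC3L, DNMT3L and TFCP2L1 did not pass. The 8 primed markers were at 121 to 126 CPM and 127 to 135 CPM, the 8 hypoblast and endoderm markers at 103 to 105 CPM and 123 to 138 CPM, and the 6 amnion markers at 25.3 to 27.4 CPM and 30.9 to 34.1 CPM. The 8 trophectoderm markers were at 29.1 to 31.5 CPM and 34.2 to 40.3 CPM, the 4 core pluripotency markers at 1975 to 2062 CPM and 2120 to 2295 CPM, and the 8 fibroblast markers, for feeder cells, at 25.0 to 27.8 CPM and 23.3 to 25.6 CPM. SPEN itself was lower with doxycycline (log2 fold change -0.31, adjusted p = 0.001). Their part in the fall of the KLF genes was not tested.

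The effects of XIST KO and of doxycycline differed for 5 of the 10 members by the interaction test, which 21.8% of all genes passed. The differences, XIST KO minus CRISPRi Dox, were 1.12 for KLF17 (SE 0.15, edgeR adjusted p = 2.9e-05), 1.01 for KLF2 (SE 0.11, adjusted p = 1e-06), 0.44 for KLF7 (SE 0.075, adjusted p = 0.00027), 0.42 for KLF6 (SE 0.060, adjusted p = 3.9e-05) and 0.32 for KLF3 (SE 0.056, adjusted p = 0.00039). The KLF17 value was 0.92 without CRISPRi Dox replicate 1, below the 2-fold limit. KLF2 fell below that limit without CRISPRi Dox replicate 1 (0.95), CRISPRi UT replicate 1 or 2 (0.94 and 0.99), PXGL WT replicate 1 (0.99) or XIST KO replicate 1 (0.96). KLF13 had a difference of 0.12 with an interval of -0.05 to 0.29.

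**Figure D4:**
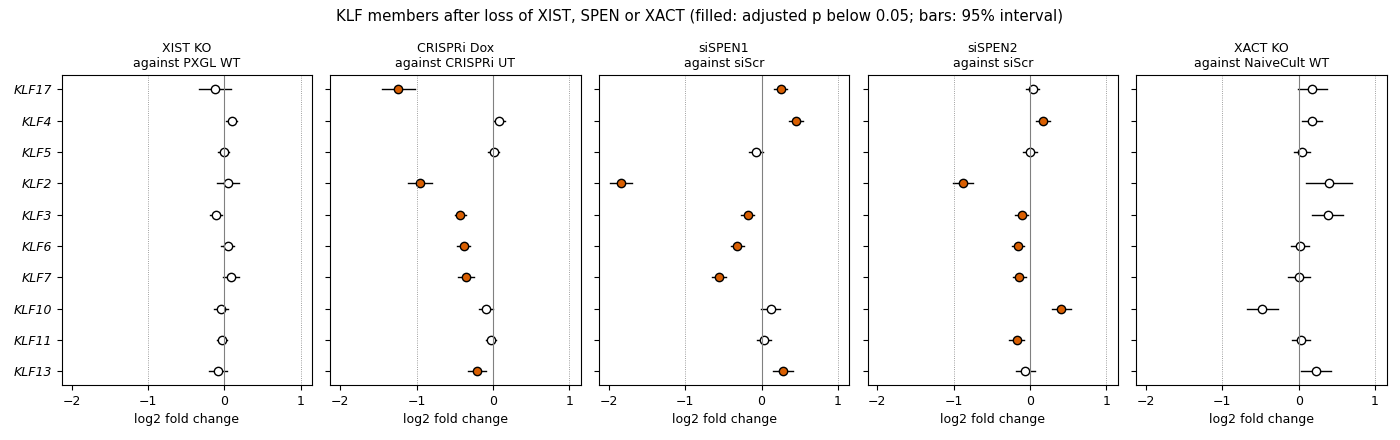
Log2 fold changes of the 10 KLF genes (points) with 95% intervals (bars) in 5 comparisons; filled points have an adjusted p below 0.05 and dotted lines mark a 2-fold change. KLF17 lies at -1.24 with doxycycline and at 0.25 with siSPEN1, KLF2 at -0.96, -1.84 and -0.88 with doxycycline, siSPEN1 and siSPEN2, and no point is filled for XIST KO or XACT KO.

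Among the lists, the other KLF and SP genes included 15 tested, of which 3 rose and 3 fell in XIST KO and 2 rose and 5 fell with doxycycline (medians -0.02 and -0.07). KLF12 was called in both, falling by 1.19 and 1.31 on the log2 scale at levels under 0.87 CPM. With doxycycline 8 of 17 tested input genes rose and 5 fell (median 0.07), SOCS3 from 6.81 to 15.1 CPM (log2 fold change 1.14, adjusted p = 2.3e-08), whereas in XIST KO 2 rose and 1 fell (median 0.00). Of the 12 naive factors 4 rose and 3 fell with doxycycline (median -0.01), TBX3 from 58.6 to 22.3 CPM (-1.41), and 0 rose and 2 fell in XIST KO (median -0.05). Among the latter was ESRRB (-1.95), at only 1.08 CPM in PXGL WT and 0.283 CPM in XIST KO. Of 11 immediate-early genes 5 fell with doxycycline and 0 rose (median -0.21), JUN from 88.7 to 43.5 CPM (-1.04), and 1 fell in XIST KO (median 0.12). Of 14 cofactors 2 rose and 3 fell with doxycycline and 2 rose in XIST KO (medians 0.00 and 0.01).

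By the interaction test the other KLF and SP genes held 3 higher and 2 lower, with KLF18 called (1.10), the inputs 1 and 5, the naive factors 2 and 3, with ESRRB called (-2.52, at group means of at most 1.08 CPM), the immediate-early genes 4 and 0, with JUN called (1.16), and the cofactors 2 and 0. The medians of these differences were 0.06, -0.07, -0.08, 0.38 and 0.02.

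Knockdown of SPEN addressed the corepressor that XIST recruits. KLF2 was the member that moved most. The siScr libraries held 54.9, 56.8 and 49.0 CPM. With siSPEN1 the values were 13.8, 14.3 and 16.2 CPM, and with siSPEN2 they were 30.2, 30.6 and 27.5 CPM. The 3 groups did not overlap. On the log2 scale KLF2 fell by 1.84 with siSPEN1 (SE 0.071, edgeR adjusted p = 6.9e-14). With siSPEN2 it fell by 0.88 (SE 0.066, adjusted p = 1.2e-09). It lay 0.97 higher with siSPEN2 than with siSPEN1 (SE 0.072, adjusted p = 1.3e-09), and past the 2-fold limit without siSPEN1 replicate 3 (1.03) or siSPEN2 replicate 3 (1.01). SPEN itself did not pass between the mixes (log2 difference -0.07, adjusted p = 0.52). KLF2 in siScr was higher than in PXGL WT (18.8 ± 0.634 CPM) and CRISPRi UT (21.2 ± 2.34 CPM). These control groups belong to different projects, and only the siRNA groups were transfected, so the difference was not tested.

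With siSPEN1, 3 members rose and 4 fell, against 20.8% of 16448 genes higher and 22.9% lower, and 1 was called, against 5.08%. Besides KLF2, KLF7 fell from 140.5 ± 2.72 to 94.9 ± 3.10 CPM (log2 fold change -0.55, SE 0.046, adjusted p = 3.9e-09), KLF6 from 233 ± 1.54 to 186 ± 5.01 CPM (-0.32, adjusted p = 3.5e-06) and KLF3 from 294 ± 8.91 to 257 ± 6.71 CPM (-0.18, adjusted p = 0.0025). KLF4 rose from 433 ± 9.85 to 589 ± 8.73 CPM, its highest level in the series (0.45, SE 0.046, adjusted p = 7.7e-08), KLF13 from 29.4 ± 0.972 to 35.5 ± 1.55 CPM (0.28, adjusted p = 0.0015) and KLF17 from 123 ± 3.49 to 145 ± 1.70 CPM (0.25, adjusted p = 0.00012). KLF5, KLF10 and KLF11 did not pass.

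With siSPEN2, 2 members rose and 5 fell, against 20.5% higher and 20.7% lower, and 0 were called, against 4.24%. KLF10 rose from 32.3 ± 1.02 to 43.2 ± 3.45 CPM (log2 fold change 0.41, SE 0.063, adjusted p = 2.0e-05) and KLF4 to 490.0 ± 14.03 CPM (0.17, adjusted p = 0.0059). After KLF2, the members that fell changed by at most 0.18, namely KLF11 (-0.18, adjusted p = 0.0059), KLF6 (-0.16, adjusted p = 0.0045), KLF7 (-0.14, adjusted p = 0.017) and KLF3 (-0.11, adjusted p = 0.049). KLF3 did not pass without siScr replicate 2 or 3 or without any of the siSPEN2 libraries (adjusted p 0.058 to 0.24), and KLF7 not without siScr replicate 3 (0.082), siSPEN2 replicate 1 (0.060) or siSPEN2 replicate 2 (0.10).

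The mixes differed from each other for 8 members, 4 higher and 4 lower with siSPEN2, against 18.3% and 16.3% of genes, with 0 called, against 2.5%. KLF7 (0.41), KLF10 (0.29) and KLF6 (0.16) were higher with siSPEN2 than siSPEN1, as was KLF2, and KLF13 (-0.34), KLF4 (-0.29), KLF17 (-0.22) and KLF11 (-0.21) were lower. KLF5 and KLF3 did not pass (0.08, 95% interval -0.02 to 0.17, and 0.07, -0.02 to 0.16). Same-numbered libraries of both mixes deviated together, and with the replicate number as a block the same number of members, 8, passed. Both mixes are set against the same siScr libraries, so their changes against siScr are not independent.

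KLF17 fell with doxycycline and rose with siSPEN1, comparisons that share no control libraries. With siSPEN2 it did not pass, at a mean of 127 CPM against 123 CPM in siScr, and the library ranges overlapped. KLF5 passed in none of the comparisons of doxycycline, siSPEN1 and siSPEN2 with their controls.

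Marker sums again moved beside these genes. In the order siScr, siSPEN1 and siSPEN2, primed markers were at 195 to 199.9, 110.0 to 115 and 143 to 147 CPM. Of these CD24 fell with both mixes, with means of 132, 51.2 and 59.0 CPM. SALL2 fell with siSPEN1 (log2 fold change -0.21), where ZIC2 and OTX2 did not pass. With siSPEN2, ZIC2 (0.56), OTX2 (0.32) and SALL2 (0.42) rose. Eight-cell-like markers were at 28.8 to 29.3, 47.4 to 50.7 and 44.1 to 45.6 CPM, and neuroectoderm markers at 476 to 499.9, 318 to 357 and 537 to 579 CPM. Naive markers were at 3025 to 3059, 3123 to 3371 and 2825 to 2996 CPM, and core pluripotency markers at 2637 to 2732, 2175 to 2439 and 2391 to 2472 CPM. Of the core markers LIN28A fell with both mixes, with means of 1810, 1307 and 1489 CPM. NANOG (log2 fold change 0.25) and SOX2 (0.29) rose with siSPEN1, and SOX2 (0.16) rose with siSPEN2. NANOG did not pass with siSPEN2, and POU5F1 passed with neither mix. Hypoblast and endoderm markers were at 116 to 121, 93.2 to 99.3 and 109 to 111 CPM, and fibroblast markers at 15.3 to 18.2, 20.7 to 23.6 and 21.7 to 24.0 CPM. The ranges of trophectoderm markers were 37.9 to 45.4, 36.7 to 37.7 and 41.5 to 51.5 CPM, and those of amnion markers 27.3 to 30.8, 25.0 to 29.5 and 24.8 to 27.7 CPM. Their part in the KLF changes was not tested.

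In the lists, 6 of 16 tested KLF and SP genes rose and 3 fell with siSPEN1, and 7 rose and 4 fell with siSPEN2 (medians 0.08 and 0.19). KLF15 rose with both, from 4.14 to 9.41 and 11.9 CPM (log2 fold changes 1.19 and 1.51). KLF9, a relative of KLF13, was at 112 CPM in siSPEN1 and 46.8 CPM in siSPEN2 (-1.28 between the mixes). Among the 17 tested inputs 8 rose and 7 fell with siSPEN1, and 6 rose and 3 fell with siSPEN2 (medians 0.00 and -0.02). MEF2D, which with ERK5 is known to induce KLF2, fell with siSPEN1 from 88.1 to 42.8 CPM (-1.03, adjusted p = 6.3e-12) and was at 91.4 CPM in siSPEN2. SOCS3 fell with siSPEN1 from 9.12 to 4.49 CPM, and less with siSPEN2, to 7.44 CPM (-0.30, edgeR adjusted p = 0.042). LEFTY1 and LEFTY2, targets of TGF-β family signals, rose with siSPEN1 (0.65 and 0.66) and more with siSPEN2 (1.58 and 1.13).

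Of the 12 naive factors 6 rose and 3 fell with siSPEN1 and 2 rose with siSPEN2 (medians 0.12 and -0.01). Of 14 cofactors 5 rose and 2 fell, then 7 and 2 (medians 0.04 and 0.14), with KAT2B called with siSPEN1 (1.43). Of 11 immediate-early genes 3 rose and 4 fell, then 6 and 2 (medians 0.00 and 0.26). JUN went from 139 CPM with the scrambled siRNA to 53.1 CPM with siSPEN1 (-1.38), and to 169 CPM with siSPEN2. Between the mixes, siSPEN2 against siSPEN1, 4 KLF and SP genes were higher and 4 lower, 8 and 3 inputs, 0 and 6 naive factors, 6 and 2 cofactors and 6 and 1 immediate-early genes (medians -0.01, 0.12, -0.17, 0.08 and 0.36).

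XACT KO asked the same of another X-coating RNA, in NaiveCult cells. None of the 10 members passed edgeR's test, where 0.206% of 16472 genes were higher, 0.219% lower and 0.115% called, 70 genes in all. At an unadjusted p below 0.05 there were 2992 genes, and DESeq2 passed 702. The 70 genes became 447, 5 and 111 without NaiveCult WT replicate 1, 2 and 3, and 0, 149 and 0 without XACT KO replicate 1, 2 and 3. KLF10 came closest, at 75.0, 97.5 and 80.1 CPM in NaiveCult WT and 64.7, 63.0 and 52.2 CPM in XACT KO (log2 fold change -0.48, SE 0.10, edgeR adjusted p = 0.054). KLF3 followed, at 139.7, 99.3 and 141 CPM against 169.7, 164 and 156 CPM (0.38, SE 0.10, adjusted p = 0.080). The groups did not overlap for either gene. Both passed with DESeq2 (adjusted p = 0.0015 and 0.015) and without NaiveCult WT replicate 1 (0.013 and 0.030). KLF2 differed by 0.40 (adjusted p = 0.20), and the other 7 members by at most 0.23. In the lists 1 of the 12 naive factors rose and no other tested gene passed in either direction (medians 0.17 for the KLF and SP genes, 0.06 for cofactors, 0.08 for inputs, 0.17 for naive factors and 0.10 for immediate-early genes).

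Over all 10 groups the highest mean of KLF17, KLF4, KLF11 and KLF13 was in siSPEN1, that of KLF2, KLF3, KLF6 and KLF7 in siScr, that of KLF5 in PXGL WT and that of KLF10 in NaiveCult WT. Primed WT was the lowest group for 9 members, and XIST KO for KLF10 (27.1 ± 0.257 CPM). From lowest to highest group mean the levels spanned 366-fold for KLF4, 177-fold for KLF5, 5.19-fold for KLF11, 4.29-fold for KLF3, 4.08-fold for KLF6, 4.02-fold for KLF7, 3.11-fold for KLF10 and 2.53-fold for KLF13. Many neighbours in these orders were not apart: of the 9 neighbouring pairs of groups, the library ranges overlapped in 7 for KLF6, 6 for KLF17 and KLF13, 5 for KLF5, KLF7, KLF10 and KLF11, 3 for KLF4 and 2 for KLF2 and KLF3. For KLF17 all groups from XIST KO down to NaiveCult WT overlapped with the next, and CRISPRi Dox stood apart from the groups above and below it. For KLF2 the overlapping pairs were CRISPRi UT with XIST KO and XIST KO with PXGL WT.

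The genes most like a member were those with the highest Pearson r of log2 CPM over the 30 libraries among 14725 genes outside the family, a description without a test since libraries of a group and project share their source. They were LOC100128885 and ITGAM for KLF17 (r = 0.996 each), FGF4, SPIC and LINC01160 for KLF4 (0.998 each), LINC02582, HOXB2 and LINC01160 for KLF5 (0.998 or above) and JADE2, PPIAP46 and SLCO4C1 for KLF2 (0.989 to 0.993). Over the 27 naive libraries r was 0.680 and 0.760 for the KLF17 genes, 0.920 to 0.944 for those of KLF4, 0.966 to 0.972 for those of KLF5 and 0.936 to 0.957 for those of KLF2. Among the members themselves, KLF17 and KLF4 had r = 0.981 over 30 libraries and 0.0368 over the naive ones, KLF4 and KLF5 0.996 and 0.910, and KLF2 and KLF7 0.939 and 0.919.

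Reads of overlapping genes limit some values. KLF3 overlaps KLF3-AS1 on the other strand, and KLF4, KLF7, KLF11 and KLF17 also have antisense neighbours, which reverse-stranded counting keeps apart. KLF7 overlaps MIR2355 and KLF7-IT1, and KLF13 overlaps UBE2CP4, on their own strand, so reads shared with them may have been lost.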

How the data were processed

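The authors deposited 1 table of raw read counts per gene symbol for each of the 30 libraries. Per the study's methods, stranded total RNA libraries depleted of ribosomal RNA were trimmed (Trim Galore 0.6.5) and mapped with Bowtie2 in local mode to human hg38 and mouse mm10. Duplicates were removed (Picard 2.23.5), mouse feeder reads were discarded with XenofilteR, and exonic reads were counted by strand with HTSeq 0.13.5. Bowtie2 does not split reads over introns, so reads across exon junctions may be lost or clipped, and removing duplicates without molecular identifiers lowers the counts of abundant genes most. Depth was 31190052 to 65637976 counts a library, and intervals and limits from counts cover counting error only.

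The main test was the quasi-likelihood one of edgeR 4.0.16 in R 4.3.3, after TMM scaling and filterByExpr (minimum count of 10, total of 15), in 4 fits: the project of PXGL WT, XIST KO and CRISPRi (17286 genes tested), the siRNA groups (16448), NaiveCult WT with XACT KO (16472), and Primed WT, NaiveCult WT and PXGL WT (18663). P-values were adjusted by Benjamini-Hochberg over all genes of a fit. A gene passed at an adjusted p below 0.05, and was called if it also changed over 2-fold. The SE was taken from the fold change and the F statistic. The main comparisons number 9, beside 1 interaction test of the XIST KO and CRISPRi Dox effects. The script was tested on simulated counts. Levels are CPM of the library total, divided by the exon union (GENCODE 44, hg38) where genes are compared.

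Groups came from the sample labels. Alternatives were DESeq2 1.42.0, RLE factors, no TMM scaling, no low-count filter, a minimum of 1 CPM in 3 libraries, only the 6 libraries compared, a replicate block and leaving out each library. Same-numbered libraries deviated together for siSPEN2 and siSPEN1 only (correlations 0.222, 0.123 and 0.124), where a replicate block changed no call of a member. No 2 libraries of a group agreed within sampling noise. The genes named are all 10 members, the called genes of the lists with the largest changes, and the 3 genes most like KLF17, KLF4, KLF5 and KLF2, of which 1 is not reported here. The members, lists and tests were chosen with earlier results of these data known.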

Additional observations from a re-analysis of the deposited data

Results flagged for a closer look

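The effects of XIST KO (against PXGL WT) and of doxycycline in the CRISPRi clones (against CRISPRi UT) differed for 5 members in the interaction test across all 12 libraries. The difference in log2 fold change, XIST KO minus CRISPRi Dox, was 1.12 for KLF17, 1.01 for KLF2, 0.44 for KLF7, 0.42 for KLF6 and 0.32 for KLF3. In each case the gene did not pass in XIST KO and fell with doxycycline. The 5 members passed in every alternative run.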

How the results depend on the processing

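Of the 62 values of members that passed, 59 kept their direction and their side of the threshold in every alternative run. The exceptions were KLF13 with doxycycline and KLF3 and KLF7 with siSPEN2, and the cause was not tested. The 30 reversals all concerned main values of at most 0.035 on the log2 scale with adjusted p of 0.6 or more. For KLF5 in XIST KO they were 0.000965 with the minimum of 1 CPM and 0.0024 in the 6 libraries alone, and -0.0261 to 0.0278 as single libraries were left out. For KLF11 in the interaction they were 0.0078 (minimum of 1 CPM), 0.0045 (DESeq2) and 0.0047 (RLE), with -0.0218 to 0.0165 as libraries were left out. KLF7 in XACT KO was -0.0034 without TMM scaling, with -0.0440 to 0.0472 as libraries were left out. The other ranges with a library left out were -0.0062 to 0.0461 for KLF5 with doxycycline, -0.0161 to 0.0456 for KLF4 and -0.0463 to 0.0182 for KLF5 in the interaction, -0.0026 to 0.0732 for KLF11 with siSPEN1, -0.0345 to 0.0459 for KLF5 with siSPEN2, and -0.0300 to 0.0466 for KLF6 in XACT KO.

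In XIST KO the members passing numbered 4 in the 6 libraries alone, 1 without TMM scaling and 0 to 1 with a library left out. The genes passing numbered 4376 in the 6 libraries alone and 1482 to 1598 with a library left out, against 2235. In XACT KO the genes passing numbered 702 (DESeq2), 762 (no low-count filter) and 0 to 447 (a library left out), against 70, and the members 2, 2 and 0 to 2, against 0. With the replicate number as a block XACT KO gave 551 genes and 2 members (KLF10 and KLF3), and KLF3 no longer passed with siSPEN2 (adjusted p = 0.059). The block ended no other member's call. Outside the comparison of the SPEN mixes same-numbered libraries did not deviate together, which with 3 libraries a group cannot exclude pairing. The labels do not say whether equal numbers mark the same clone or culture, so pairing is unknown there. TMM scaling changed 37 of 100 group levels by more than 1 SD, by 0.850-fold to 1.08-fold, and the longest transcript in place of the exon union changed 70 of 100 shares by more than 1 SD. Each group holds 3 libraries, and at 0 counts the depth limits KLF17 in Primed WT to 0.0179 CPM.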
